A study of Mus musculus with 2 samples.

Results

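The genes described here are 10 genes of the blood vessel lining, read in pooled distal colon RNA of IL-9 transgenic mice and of wild-type mice. They are Plvap, Vwf, Pecam1, Cdh5, Kdr, Flt1, Tek, Tie1, Emcn and Eng, chosen by name, and every probe set that the platform annotation gives to one of them alone was read. That gave 14 probe sets of the 22690 on the array, for 10 of the 12393 genes with a probe set of their own. On this Affymetrix expression array each transcript is read by sets of short oligonucleotide probes, and each probe set yields 1 intensity per array on a linear scale. The transgenic group (title Tg5) expresses interleukin-9 (IL-9), a type 2 cytokine known for its action on mast cells, from a transgene. The wild-type group (title FVB) is of the FVB inbred strain, spelled TVB in the series text, and carries no IL-9 transgene as far as the labels say. Each group was 1 array of RNA pooled from 4 mice, bred under specific pathogen-free conditions. The promoter of the transgene, a separate statement of the background strain of the transgenic mice, and the age and sex of the mice are not given in the sources used here.

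With 1 pooled array per genotype there was no spread between replicates, so no test was run and every difference below is a description of 2 pools. Precision is limited by having 2 arrays. A floor was set at an intensity of 19.8, below which 40% of readings of non-control probe sets lay, and lower readings were raised to it before a ratio was taken. A gene was called measured when its brightest probe set exceeded the floor on at least 1 array, and was counted as higher or lower at 2-fold, a log2 ratio of 1 in size. Log2 ratios are transgenic over wild type throughout. Il9 itself had an intensity of 862 in the transgenic pool and 5.14 in the wild-type pool. The median intensity was 34.2 on the transgenic array and 34.0 on the wild-type array, and the ratio of 3′ to 5′ Gapdh control probes, a sign of RNA integrity, was 0.762 in transgenic and 0.719 in wild-type colon. Exocrine pancreas genes stood apart: all 10 on the array were lower by at least 2-fold in the transgenic pool, with summed intensities of 1663 in transgenic and 27026 in wild-type colon. Their part in the vessel results was not tested.

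Endothelial cells line blood and lymph vessels. VEGF receptors and TIE receptors on their surface guide vessel growth and stability, VE-cadherin and PECAM-1 hold neighbouring cells together, and stored von Willebrand factor tethers platelets when it is released. In gut mucosa the capillaries are fenestrated, with pores closed by diaphragms that let fluid and small proteins pass. In pooled tissue RNA, more endothelial cells and more RNA per endothelial cell cannot be told apart.

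Plvap and Vwf were both 2-fold higher in the transgenic pool, although both fell just short of 2-fold under median scaling, under loess and with no floor. Of the 10 genes 8 were measured, of which 2 were higher by at least 2-fold and 0 lower by as much. Over all 8346 measured genes 0.767% were higher and 0.611% lower by at least 2-fold. Among the 4085 measured genes with a mean intensity of 20 to 100, 0.955% were higher by at least 2-fold. That range holds most of the vessel genes, but Plvap lies just above it. The 8 measured members had a median log2 ratio of 0.32 (mean 0.41), against a median of 0.04 over all measured genes. A positive ratio was found in 7 of 8 (87.5%), against 56.0% of all measured genes. Flt1, 1 of these 7, turned negative when all its probe sets were averaged. Of the 8, 4 lay within 0.15 of 0: Kdr, Tek, Flt1 and Emcn. The members were chosen with earlier results of these data known, so the shares beside them are a description only.

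**Figure D1:**
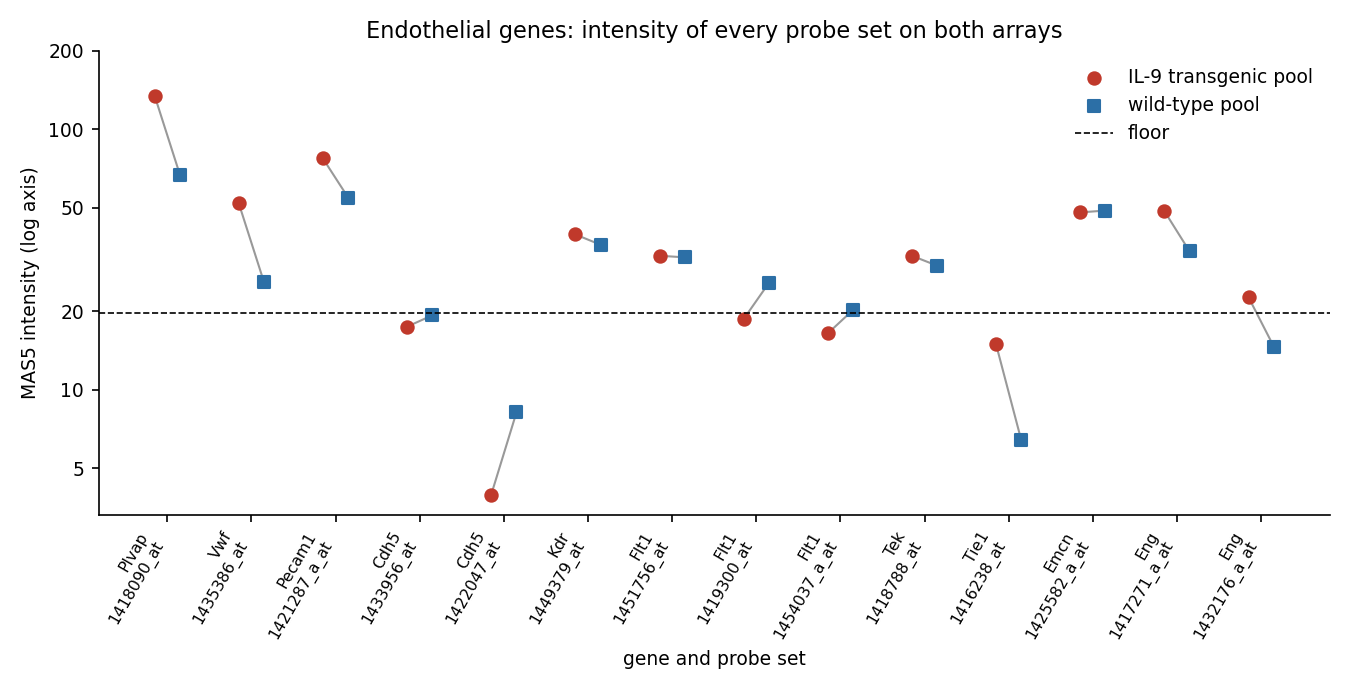
MAS5 intensity on a log axis of each of the 14 probe sets of the 10 endothelial genes, with the IL-9 transgenic pool (red circles) left of the wild-type pool (blue squares) and a line joining the 2 arrays. The dashed line is the floor of 19.8, and 8 of 14 probe sets lay above it on both arrays. Plvap and Vwf have the steepest lines among these 8.

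Plvap encodes the protein of the diaphragms that close endothelial fenestrae and caveolae. Its single probe set (1418090_at) read 135 in transgenic colon and 67.0 in wild-type colon, a difference of 67.5 and a 2.01-fold higher value (log2 ratio 1.01). That ratio was above those of 99.3% of measured genes. Vwf encodes von Willebrand factor, the multimeric glycoprotein that endothelial cells and megakaryocytes store and secrete. Its single probe set (1435386_at) had 52.0 in transgenic and 25.9 in wild-type colon, also 2.01-fold higher (log2 ratio 1.01). The wild-type reading of Vwf lay only a little above the floor, while both readings of Plvap were well above it.

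Both genes passed the 2-fold threshold by a narrow margin. Under scaling of each array by its median the log2 ratio was 0.996 for Plvap and 0.996 for Vwf, and under an intensity-dependent loess it was 0.979 and 0.996 for the same genes, so that both calls ended. With no floor and a pseudocount of 0.735 the ratios were 0.997 and 0.985, also short of the threshold. The values themselves hardly moved: over the settings in which each was measured, Plvap ranged from 0.979 to 1.01 and Vwf from 0.985 to 1.01. As a technical yardstick, probe sets of 1 gene that exceeded the floor on both arrays, with mean intensities of 20 to 100, differed in log2 ratio with a pooled SD of 0.31 (1193 genes, 2682 probe sets). The mean intensity of Plvap lay just above that range, and the SD over all intensities was 0.28. The ratios of Plvap and Vwf were larger than either SD, but each rests on 1 probe set, and the yardstick holds no spread between mice.

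**Figure D2:**
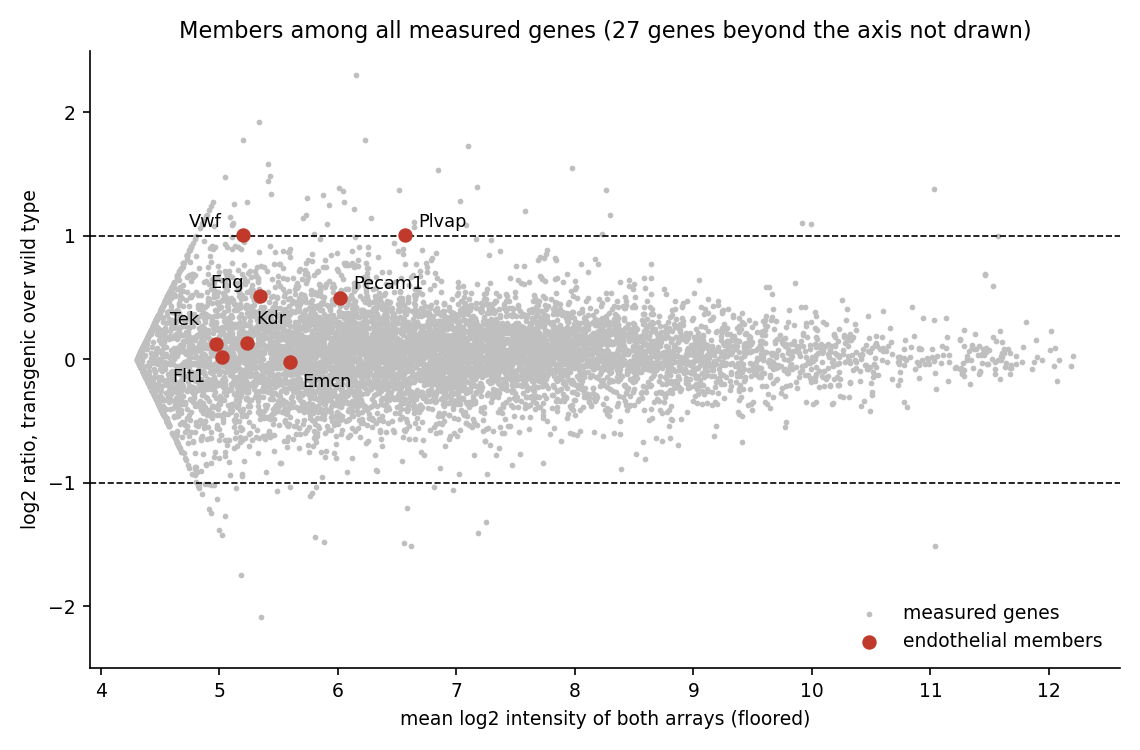
Log2 ratio of transgenic over wild type against the mean log2 intensity of both arrays, for all 8346 measured genes (grey; 27 beyond the axis are not drawn) and the 8 measured endothelial genes (red, named). Dashed lines mark 2-fold; Plvap and Vwf lie on the upper line (just below it under median scaling, loess and no floor), Eng and Pecam1 near 0.5 and the other 4 near 0.

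Of the 2 genes of endothelial cell junctions, only Pecam1 was measured. Pecam1, an adhesion receptor at endothelial contacts that platelets and leukocytes also carry, had 77.3 in transgenic and 54.7 in wild-type colon (1421287_a_at), a log2 ratio of 0.50 or 1.41-fold. It stood above 93.8% of measured genes and below the 2-fold threshold under every setting in which it was measured, from 0.48 to 0.50. Cdh5 encodes VE-cadherin, the adherens junction cadherin that defines endothelium, and its 2 probe sets stayed under the floor in both pools. The brighter one (1433956_at) had 17.5 in transgenic and 19.3 in wild-type colon, and the other (1422047_at) 3.96 in transgenic and 8.20 in wild-type colon. Neither gives a usable ratio, and both read higher in the wild-type pool.

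The 2 main receptors of VEGF-A had ratios smaller than the yardstick SD. Kdr (VEGF receptor 2), which carries the growth and permeability signal, had 39.5 in transgenic and 36.0 in wild-type colon (1449379_at), a log2 ratio of 0.13. Flt1 (VEGF receptor 1), which binds VEGF-A tightly and also exists as a soluble decoy, had 32.7 in transgenic and 32.3 in wild-type colon by its brightest probe set (1451756_at), a log2 ratio of 0.02. Its other 2 probe sets were below the floor in transgenic colon and just above it in wild-type colon. The probe set 1419300_at had 18.7 in transgenic and 25.7 in wild-type colon, at least 1.30-fold lower, and 1454037_a_at had 16.5 in transgenic and 20.3 in wild-type colon. The mean over the 3 probe sets was -0.13. The direction of Flt1 therefore depended on the probe set, and none of the 3 read a 2-fold difference.

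The angiopoietin receptor Tek (TIE2), a kinase that keeps vessels quiescent, had 32.7 in transgenic and 30.0 in wild-type colon (1418788_at), a log2 ratio of 0.13. Its partner receptor Tie1 (1416238_at) stayed under the floor in both pools, at 14.9 in transgenic and 6.40 in wild-type colon. With a floor at the 20th percentile (5.58) Tie1 became measurable at a log2 ratio of 1.22, a value read from intensities in the range where background subtraction makes ratios unstable. Cdh5 had -0.15 at that floor. Emcn, a mucin-like surface protein of capillaries and veins, had 48.0 in transgenic and 48.8 in wild-type colon (1425582_a_at, log2 ratio -0.02). The ratios of Tek and Emcn were smaller than the yardstick SD of 0.31.

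Eng encodes endoglin, a co-receptor for ligands of the TGF-beta and BMP family. Its brightest probe set (1417271_a_at) had 48.5 in transgenic and 34.0 in wild-type colon, a log2 ratio of 0.51 or 1.43-fold, above 94.3% of measured genes. The second probe set (1432176_a_at) also read higher in transgenic colon, at 22.7 against 14.7 in wild-type colon, where it was below the floor, so that it gives only a bound of at least 1.15-fold. Both probe sets of Eng thus read higher in the transgenic pool. The mean of both probe sets was 0.35.

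**Figure D3:**
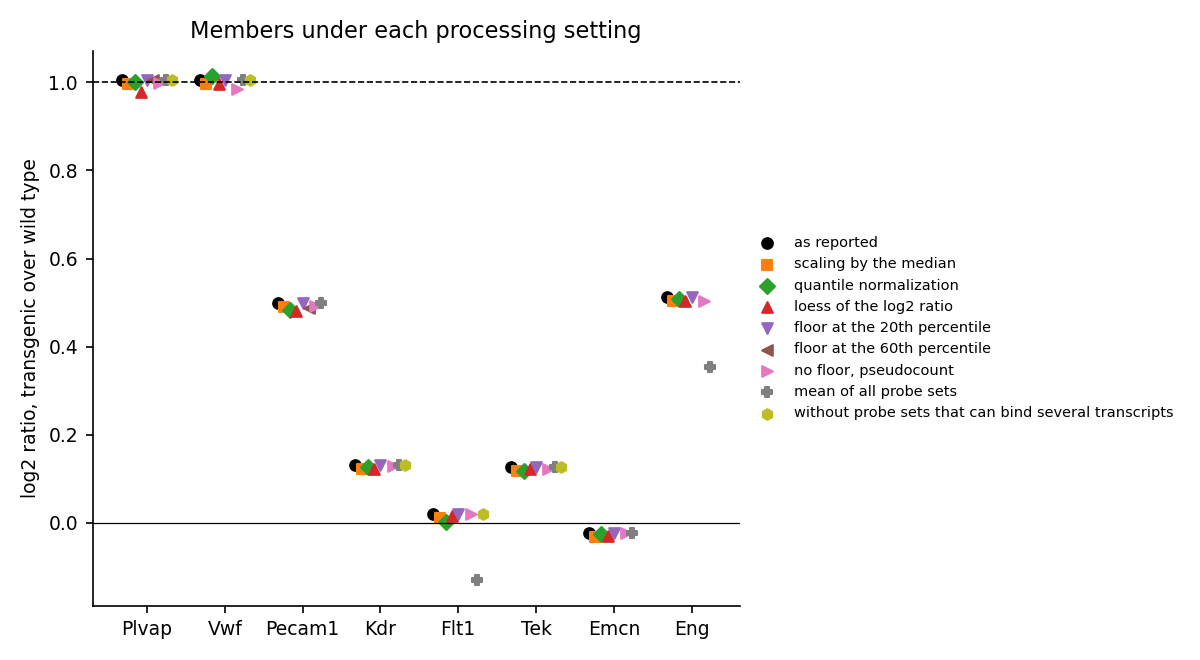
Log2 ratio of transgenic over wild type of the 8 measured endothelial genes as reported (black circles) and under 8 other processing settings (coloured markers, where the gene is measured). The dashed line is 2-fold; the markers of Plvap and Vwf straddle it, and those of the other 6 genes stay below it.

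Of the 10 genes 6 had a promoter window in the RefSeq table of GRCm38.p6, from 250 bases before to 50 after a gene start. ETS family factors are known regulators of many endothelial genes, and GGAAG is 1 form of their core motif. Other forms of the core were not searched. The 250 bases before the start are shown for Eng, the member with a window that had the highest ratio, Emcn, whose ratio was near 0, and Tie1, which was below the floor. Capitals mark GGAAG or its reverse complement CTTCC.
Eng (chr2:32646345-32646594, plus strand): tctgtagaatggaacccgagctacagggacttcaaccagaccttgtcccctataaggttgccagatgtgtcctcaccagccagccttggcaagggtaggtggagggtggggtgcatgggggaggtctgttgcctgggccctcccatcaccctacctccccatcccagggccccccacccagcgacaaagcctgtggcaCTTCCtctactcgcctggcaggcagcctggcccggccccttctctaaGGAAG
Emcn (chr3:137340828-137341077, plus strand): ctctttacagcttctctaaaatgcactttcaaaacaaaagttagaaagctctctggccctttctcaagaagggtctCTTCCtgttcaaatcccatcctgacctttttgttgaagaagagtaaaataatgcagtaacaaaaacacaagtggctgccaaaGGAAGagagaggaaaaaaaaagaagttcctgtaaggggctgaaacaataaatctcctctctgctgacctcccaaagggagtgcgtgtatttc
Tie1 (chr4:118489850-118490099, minus strand): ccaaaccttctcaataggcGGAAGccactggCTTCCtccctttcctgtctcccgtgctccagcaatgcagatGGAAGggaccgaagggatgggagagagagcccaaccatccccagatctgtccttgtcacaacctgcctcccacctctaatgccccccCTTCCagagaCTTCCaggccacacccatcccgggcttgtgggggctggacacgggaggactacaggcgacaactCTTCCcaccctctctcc
This form of the ETS core occurred 2 times before the start in Eng, 2 times in Emcn and 6 times in Tie1. In the full 300-base window Flt1 held 3, Kdr 1 and Tek 0, and Tie1 held 7. At least 1 match was present in 71.4% of the 32851 windows of the table, so a match by itself sets no member apart. The STAT site TTCNNNGAA and the FOX core TAAACA were in 0 of the 6 windows, against 8.30% and 13.4% of all windows. The GATA core AGATAA was in 1, that of Tek, against 11.2%. Both strands were searched.

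Other endothelial genes did not show the 2-fold difference of Plvap and Vwf. Of 37 on the array 26 were measured, and 0 reached 2-fold in either direction (1 was higher at the 20th-percentile floor, and 2 were higher and 1 lower with no floor), with a median log2 ratio of 0.13 (0.006 with no floor) and 15 positive against 11 negative values. All measured genes together had 56.0% positive ratios, with 0.767% higher and 0.611% lower by at least 2-fold. The largest differences went both ways. Apln, the ligand apelin made by sprouting endothelium, had 21.1 in transgenic and 33.7 in wild-type colon (-0.67), while its receptor gene Aplnr had 63.1 in transgenic and 43.9 in wild-type colon (0.52) by its brightest probe set. Lmo2, a transcriptional cofactor of blood and vessel development, had -0.54. The tight junction gene Cldn5, a defining endothelial marker outside the 3 largest, had 55.2 in transgenic and 75.0 in wild-type colon (-0.44). Larger in size than Cldn5 and positive were Icam2, at least 0.50 with its wild-type reading below the floor, and Cd93, 0.47 by its brightest probe set. Cldn5, Icam2 and Cd93 were named after their values were seen.

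The ligands and partners of the receptors differed little. In the VEGF list 6 of 8 genes were measured with a median of -0.17 (0.04 when all probe sets of a gene were averaged), and 0 reached 2-fold. Vegfa, the main ligand of Kdr, had 56.2 in transgenic and 68.0 in wild-type colon (-0.27) by the brightest probe set and 0.44 by the other. Vegfb, a ligand of Flt1, was lower by at least 1.36-fold in transgenic colon, and the co-receptor gene Nrp2 had 0.22. Angpt2, the angiopoietin that endothelial cells store with von Willebrand factor, was at least 1.31-fold lower, at 14.3 in transgenic and 25.9 in wild-type colon. In the same list of 4 measured genes the phosphatase gene Ptprb had 0.19 and Tnip2, a regulator of NF-kB signalling, at least 0.21. Angpt1, the activating ligand of Tek, was below the floor on both arrays.

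Genes that act with endoglin held 14 measured members, with a median of 0.08 (-0.03 at either other floor and with no floor) and 0 at 2-fold. Id1 and Id3, known targets of BMP signalling, had 0.34 and 0.29, and Id2 had -0.40. The type III receptor gene Tgfbr3 had 0.34. The type I receptor gene Acvrl1, the endothelial partner of endoglin, had 39.6 in transgenic and 32.9 in wild-type colon (0.27). Id3 and Acvrl1 were named after their values were seen.

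Partners of VE-cadherin and PECAM-1 were all measured, 12 of 12, with a median of 0.03 and 0 at 2-fold. Ctnnd1 (p120-catenin), which keeps cadherins at the membrane, had -0.55, the junctional adhesion gene Jam2 -0.37 by its brightest probe set and 0.13 by another, and Jam3 0.40. In the caveolae and fenestrae list, which covers the structures where the Plvap protein sits, 8 of 8 genes were measured with a median of -0.05 and 0 at 2-fold. The coat gene Cavin1 had 0.38, the dynamin gene Dnm2 0.35 (with 1 of its other probe sets at -0.08) and Ehd2, which anchors caveolae, 0.30. Cav1, the main caveolin gene, had 787 in transgenic and 882 in wild-type colon (-0.16) and was named after its value was seen.

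Around Vwf, 4 of 8 genes on the array for its release and cleavage were measured, with a median of 0.31 (0.12 when all probe sets of a gene were averaged) and 0 at 2-fold (1 lower at the 20th-percentile floor, 1 higher with no floor). The granule transport gene Rab27a had 0.37, Rab3d 0.35 and the exocyst gene Exoc4 0.27, although 1 other probe set of Rab3d and 2 of Exoc4 were negative. Of the platelet and megakaryocyte genes, the other source of von Willebrand factor, 2 of 8 were measured, and the summed intensity of all 8 was 165 in transgenic and 203 in wild-type colon. Pf4 had 105 in transgenic and 121 in wild-type colon (-0.20) and Itga2b 29.9 in transgenic and 27.3 in wild-type colon (0.13). Defining platelet genes Gp9, Gp5 and Ppbp were below the floor on both arrays, as were all 4 erythrocyte genes on the array. The part of platelets in the ratio of Vwf was not tested.

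Notch pathway genes, which set arterial and venous identity, had 8 of 13 measured, a median of 0.02 and 0 at 2-fold, with Ephb4, the venous ephrin receptor gene, at 0.52, Notch1 at 0.30 and Hes1 at 0.26. Lymphatic endothelial genes had 6 of 7 measured and a median of -0.10, with Pdpn (podoplanin) at -0.48, Flt4 (VEGF receptor 3) at -0.18 and Reln at 0.37. Lyve1, the brightest of them, had 117 in transgenic and 131 in wild-type colon. Pericyte genes, from the cells wrapped around capillaries, had 7 of 10 measured and a median of 0.09. Kcnj8 had -0.36, Pdgfrb 0.32, Cspg4 0.15 and the brightest, Rgs5, 0.14, with the 3 other probe sets of Rgs5 negative. None of these 3 lists held a gene at 2-fold.

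**Figure D4:**
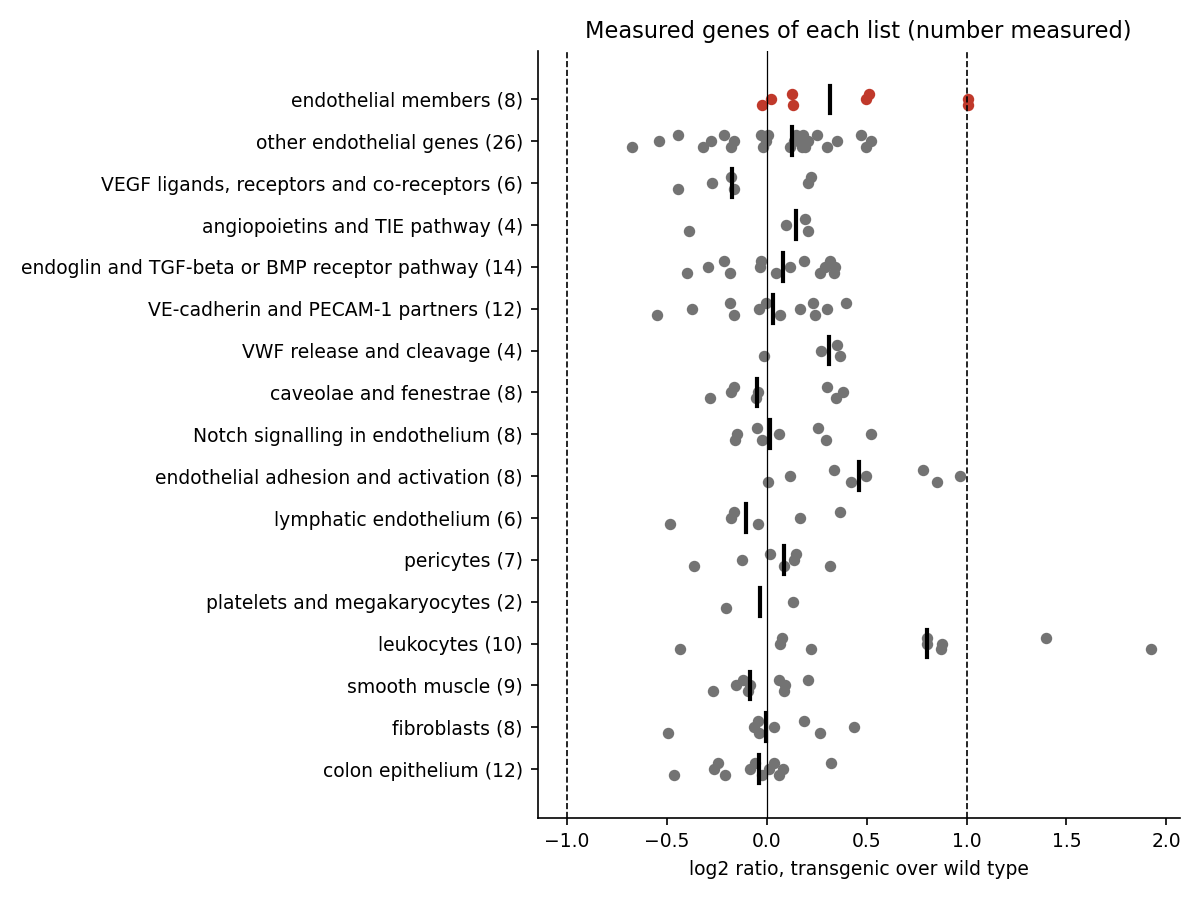
Log2 ratio of transgenic over wild type of each measured gene in 17 lists, with the number measured in brackets and the list median as a black bar. Dashed lines mark 2-fold. Plvap and Vwf reach the upper line, and fall just short of it under median scaling, loess and no floor; among the other lists, points of the leukocyte list pass it.

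Most leukocyte genes were higher in the transgenic pool beside the vessel genes. Of 13 on the array 10 were measured, 9 were positive and 2 reached 2-fold, with a median log2 ratio of 0.80 and summed intensities of 1435 in transgenic and 929 in wild-type colon. Over all measured genes 56.0% were positive and 0.767% were higher by at least 2-fold. For the leukocyte list, averaging all probe sets of a gene gave a median of 0.52 with 1 gene at 2-fold. Its number at 2-fold was 1 at the 60th-percentile floor, and 4 at the 20th-percentile floor and with no floor. Cd79a had 78.5 in transgenic and 20.7 in wild-type colon (1.92), and Coro1a, a cytoskeletal gene of blood cells, 235 in transgenic and 89.1 in wild-type colon (1.40). Laptm5 had 0.88, and the brightest, Csf1r of macrophages, 0.07. The 1 negative gene, Adgre1, also of macrophages, had 31.5 in transgenic and 42.6 in wild-type colon (-0.43). The T cell genes Cd3e and Cd3g had at least 0.08 and 0.22. They are among the 9 positive genes, but were below the floor in wild-type colon, so their ratios could only be positive. Adgre1, Cd3e and Cd3g were named after their values were seen. Cd4, Cd8a and Itgam were below the floor on both arrays. Pecam1 is also made by leukocytes, and the part of leukocytes in its ratio was not tested.

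Among the other tissue layers, smooth muscle, fibroblast and epithelial lists were close to even, and most adipocyte genes were a little lower in the transgenic pool. Smooth muscle genes had 9 measured, a median of -0.08 and summed intensities of 9185 in transgenic and 9537 in wild-type colon, with Mylk at -0.27, Smtn at 0.21, Actg2 at -0.15 and the brightest, Acta2, at -0.12. Fibroblast genes had 8 measured and a median of -0.001, with Lum at -0.49, Fbln1 at 0.44, Col1a1 at 0.27 and Dcn at -0.04; the other probe set of Col1a1 had -0.83. Colon epithelial genes, which check the labelled tissue, had 12 of 12 measured and a median of -0.04, with Cdh1 at -0.46, Krt18 at 0.32, Car1 at -0.26 and Lgals4 at -0.06. Adipocyte genes had 5 of 7 measured and a median of -0.20, with 4 of the 5 negative, led by Car3 at -0.54. In none of these 4 lists did a gene reach 2-fold.

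The genes nearest to Plvap in log2 intensity on both arrays were Gimap4 (distance 0.08), Chd4 (0.11) and Iigp1 (0.12). Gimap4, a GTPase gene of lymphocytes, had 128 in transgenic and 68.7 in wild-type colon. Chd4 had 126 in transgenic and 69.7 in wild-type colon, and Iigp1, an interferon-inducible GTPase gene, 145 in transgenic and 69.0 in wild-type colon. The other probe set of Iigp1 was higher in the transgenic pool too, by at least 2.21-fold, whereas that of Gimap4 had a log2 ratio of 0.10 and the other 2 of Chd4 were near or below the floor. The genes nearest to Vwf were Smim27 (0.04), Sash3 (0.08) and Hamp2 (0.09). Smim27 had 51.5 in transgenic and 26.7 in wild-type colon, and Hamp2 48.9 in transgenic and 26.1 in wild-type colon. The other probe sets of Smim27 and Hamp2 were below the floor on both arrays. Sash3, a lymphocyte adaptor gene, had 49.6 in transgenic and 26.7 in wild-type colon. These distances cover 2 arrays only and compare probe sets whose brightness also depends on their probes.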

How the data were processed

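Total RNA from a piece of distal colon was pooled from 4 mice per genotype and hybridised to 1 array per pool. The deposited table gives 1 linear intensity per probe set, made by the authors with MAS5 (version not stated) per the submitters' processing notes. Both arrays had a mean intensity of 100.04 once 2% of probe sets were trimmed at each end. MAS5 subtracts background, which makes ratios of low intensities unstable, and detection calls were not part of the values used here.

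Of 22690 probe sets 64 were controls. Another 20380 had 1 gene symbol, 691 several and 1555 none. Of the single-symbol probe sets 20351 matched the RefSeq gene table of GRCm38.p6 by gene identifier, and 0 symbols changed. No genome build is named for the probe annotation. The brightest probe set stood for each gene, and no scaling was added. Statistics were computed with Python 3.11.15, pandas 2.3.3 and statsmodels 0.14.6, and the ratio and scaling code was tested on simulated data.

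Named genes were all members, the up to 3 measured genes with the largest ratio in size of each of 19 other lists, the brightest gene of lists for other cell types, and the 3 genes nearest to Plvap and to Vwf. Not all of these are printed. The members and lists were chosen with earlier results of these data known. The intensity range of 20 to 100 was chosen after the values were seen. Alternatives were 3 scalings (median, quantile, and loess, span 0.3), a lower floor (20th percentile), a higher one (60th), no floor with a pseudocount, the mean of all probe sets, leaving out probe sets whose suffix marks several target transcripts (_a, _s, _x, _f or _g), and a 1.5-fold threshold.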

Additional observations from a re-analysis of the deposited data

How the results depend on the processing

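The count of endothelial genes at least 2-fold higher, 2 as reported, was 0 under median scaling and 0 under loess. A floor at the 60th percentile left 1, since only Plvap and Pecam1 were then measured, and the members' median log2 ratio was 0.75. No floor also left 1, where Tie1 took the place of Plvap and Vwf, and a 20th-percentile floor gave 3, where Tie1 joined them. It stayed at 2 under quantile normalization, the mean of all probe sets, the removal of multi-transcript probe sets and a 1.5-fold threshold. Outside the 60th-percentile floor the members' median ranged from 0.13, over the 5 members measured once multi-transcript probe sets were removed, to 0.32. Over all genes the counts higher and lower were 64 and 51 as reported, 202 and 258 at the 20th-percentile floor, 29 and 27 at the 60th, 655 and 800 with no floor, and 341 and 238 at 1.5-fold. A lower floor adds genes near background. Of 55 values of single measured members under alternatives, 49 stayed on the same side of 2-fold and moved by less than 0.28, the pooled SD between probe sets of a gene, and 6, all of Plvap and Vwf, fell just short of 2-fold. The mean of all probe sets moved Flt1 to -0.13 and Eng to 0.35. No paired analysis was possible because each group holds 1 array.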

Other observations

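Genes by which vessels recruit leukocytes were mostly a little higher in the transgenic pool. Of 11 on the array 8 were measured and all 8 had positive log2 ratios, with a median of 0.46. Over all measured genes 56.0% were positive, with a median of 0.04. Icam2 and Madcam1 were below the floor in wild-type colon and measured only through the transgenic array, so their ratios could only be positive. Ackr1 had 0.006. Under median scaling, loess and the mean of all probe sets 7 of the 8 genes of this list were positive, and at lower floors 2 further genes were negative. None reached 2-fold, but at the 20th-percentile floor and with no floor 1 gene was at least 2-fold lower: Fut7, a fucosyltransferase gene of selectin ligands, at 0.913 in transgenic and 12.1 in wild-type colon, below the floor in both pools. Chst4, a sulfotransferase that prepares ligands for L-selectin in high endothelial venules, had 219 in transgenic and 112 in wild-type colon (0.97). It was the brightest gene of this list, and which cells of the pooled tissue made its RNA was not tested. Glycam1, which encodes such a ligand in those venules, had 73.7 in transgenic and 40.9 in wild-type colon (0.85), and Icam1, the ligand of leukocyte integrins, 45.2 in transgenic and 26.3 in wild-type colon (0.78). Madcam1, the gut addressin, was at least 1.26-fold higher, at 25.0 in transgenic and 16.1 in wild-type colon. Vcam1 had 0.42 by its brightest probe set, with its 2 others at -0.36 and -0.07. Sele and Selp, the endothelial selectin genes, were below the floor on both arrays. Fut7, Madcam1, Vcam1, Icam2 and Ackr1 were chosen after their values were seen.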
